A study of Mus musculus with 39 samples.

Results

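Nicotinic acetylcholine receptors are ion channels that open when acetylcholine binds, and they are built from subunits encoded by separate genes. Chrna7 encodes the alpha7 subunit, which forms calcium-permeable channels from copies of itself. Chrna4 and Chrnb2 encode the alpha4 and beta2 subunits, which join into the most common high-affinity nicotine receptor of the brain. Chrna3 and Chrnb4 encode the alpha3 and beta4 subunits of the receptor typical of autonomic ganglia and the medial habenula, and Chrna5 encodes alpha5, an accessory subunit that binds the agonist only together with other subunits. Lynx1 encodes a protein tethered to the neuronal surface that binds these receptors and dampens their response.

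These 7 genes were described in brain RNA from mice given soman, an organophosphate nerve agent that blocks acetylcholinesterase, and from mice given saline. They were chosen by gene symbol, as 6 subunit genes with Lynx1, and are 7 of 47561 genes in the deposited table. Soman was injected under the skin at fractions of its median lethal dose, LD50, namely 1/10, 1/5 and 1/2 LD50, and brains were taken at day 1, 3, 7 or 14. Each of the 12 soman groups and the saline group had 3 libraries, 39 in all. The labels give no strain, sex or age, no day for the saline brains, no number of doses per animal and no number of animals per library. A difference from saline therefore cannot be told apart from a difference between collection days, and a difference among days cannot be told apart from one in handling between collections. Values are FPKM, fragments scaled to transcript length and to the size of the library, so that genes can be set side by side.

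A gene was tested if it reached 1 FPKM in at least 3 libraries, as 14701 genes did, and a change was called at an adjusted p below 0.05 in limma, adjusted over all of them. Chrna4, Chrna7, Chrnb2 and Lynx1 stood above 1 FPKM in all 39 libraries. Chrna3 reached 1 FPKM in 3 libraries, all from day 7, so that it was tested only through the day at which it was high. Chrna5 and Chrnb4 did not reach 1 FPKM in any library, and their values come from a fit without that filter. Across the series, FPKM summed to between 296322 and 342231 per library, and neuronal markers were present throughout, with the 6 genes of that list summing to between 1146 and 1611 FPKM in soman libraries and between 1231 and 1331 FPKM in saline libraries. The group of 1/10 LD50 at day 7 held the libraries with most mitochondrial RNA, 21.7% of all FPKM in replicate 2 and 25.9% in replicate 3, against a median of 9.60% over the series. A further irregularity touches 7 libraries that looked like a blend of their 2 fellow libraries, midway between them for 47.6% to 76.5% of the genes that differed strongly, against a median of 17.1% in the rest. The third replicate was such a library in saline, in all 3 dose groups of day 1 and in the day 14 groups of 1/10 and 1/5 LD50, and replicate 2 was in the day 7 group of 1/10 LD50. These 7 are called midway libraries here. Replicate 3 of 1/10 LD50 at day 3 reached 61.9% but was not counted, since a library of another group reached 64.4% for the same genes.

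The order of the levels was Lynx1, Chrnb2, Chrna4, Chrna7, Chrna3, Chrna5 and Chrnb4. Lynx1 had a median of 82.6 FPKM over the 39 libraries, 8.45 times the median of Chrnb2, and the lowest Lynx1 value of 55.1 FPKM lay far above the highest Chrnb2 value of 11.5 FPKM. Chrnb2 had a median of 9.78 FPKM, Chrna4 of 7.09 FPKM and Chrna7 of 5.18 FPKM. Each of these 3 was above the next in the order in 39 of 39 libraries, although the ranges of Chrnb2 and Chrna4, and those of Chrna4 and Chrna7, overlapped across libraries. Chrna3 followed at a median of 0.652 FPKM, and its highest value of 1.16 FPKM stayed below the lowest Chrna7 value of 3.50 FPKM. Chrna5 at 0.355 FPKM and Chrnb4 at 0.253 FPKM overlapped widely, and Chrna5 was the higher of the pair in 29 of 39 libraries. The message of the brain receptor subunits alpha4, beta2 and alpha7 was thus several times that of the ganglionic and habenular subunits in every library.

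**Figure D1:**
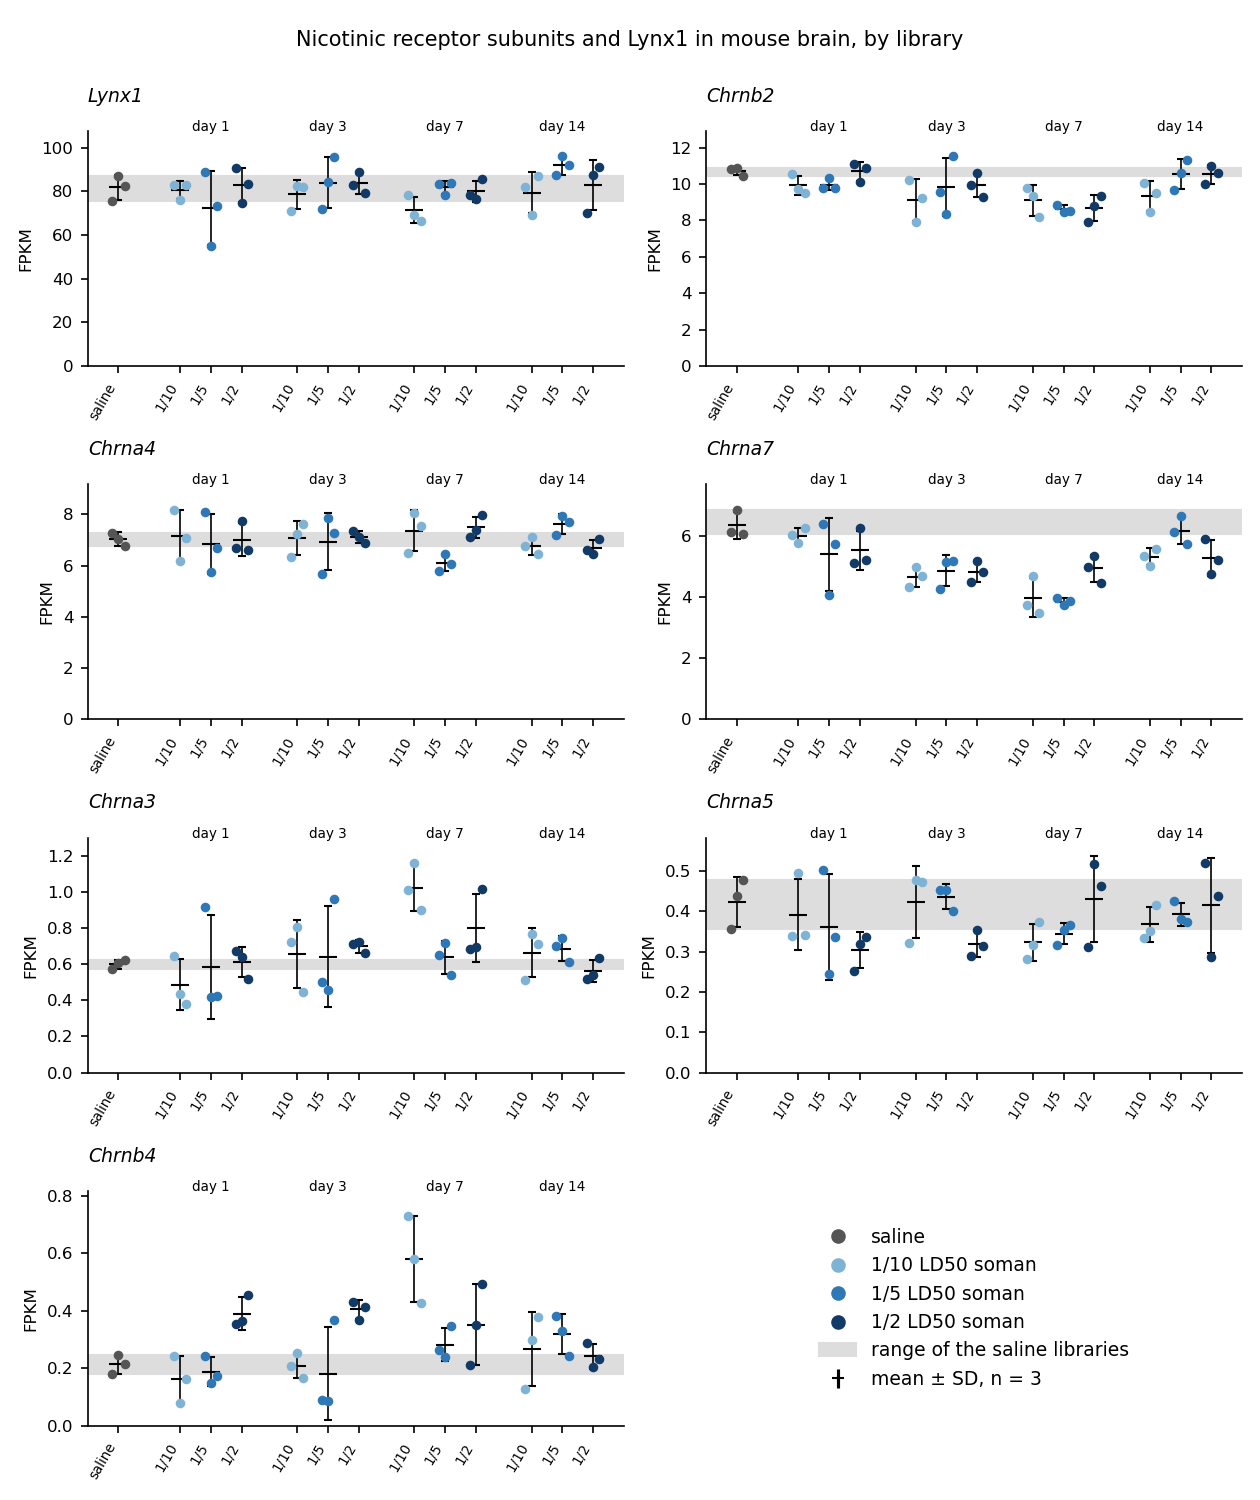
FPKM of each gene in every library (points), with the mean and SD of 3 libraries (black bars), saline at the left and then the 3 doses within day 1, 3, 7 and 14; the grey band is the range of the saline libraries. Chrna7 lies below the band in all 9 libraries of day 3 and in all 9 of day 7, while Chrna4 and Lynx1 lie around it.

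The sequences around 3 start sites are shown because Chrna7 carried the clearest change and because Chrna3 and Chrnb4, which lie next to each other on chromosome 9 with Chrna5 on the far side of Chrna3, were both high in the same libraries. They are the 300-base RefSeq windows of GRCm38.p6 around the annotated start, read 5′ to 3′ on the strand of the gene, which is the minus strand for all 3. Capitals mark the match to a searched motif, GGGCGG or its reverse complement CCGCCC for the Sp1 GC box and CAGCTG, a form of the E box. The windows are chr7:63212477-63212776 for Chrna7, chr9:55026513-55026812 for Chrna3 and chr9:55048495-55048794 for Chrnb4.
Chrna7: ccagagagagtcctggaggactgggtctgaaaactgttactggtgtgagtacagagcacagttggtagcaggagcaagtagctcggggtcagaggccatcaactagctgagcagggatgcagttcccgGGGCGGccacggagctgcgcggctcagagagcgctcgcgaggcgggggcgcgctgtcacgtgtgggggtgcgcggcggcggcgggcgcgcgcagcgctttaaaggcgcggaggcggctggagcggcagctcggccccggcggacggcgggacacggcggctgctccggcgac
Chrna3: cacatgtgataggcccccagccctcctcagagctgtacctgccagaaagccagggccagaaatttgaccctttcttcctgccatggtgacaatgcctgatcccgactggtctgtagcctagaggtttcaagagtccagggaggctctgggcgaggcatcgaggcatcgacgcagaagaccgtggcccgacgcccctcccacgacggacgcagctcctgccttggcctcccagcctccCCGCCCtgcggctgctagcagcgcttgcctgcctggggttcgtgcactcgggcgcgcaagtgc
Chrnb4: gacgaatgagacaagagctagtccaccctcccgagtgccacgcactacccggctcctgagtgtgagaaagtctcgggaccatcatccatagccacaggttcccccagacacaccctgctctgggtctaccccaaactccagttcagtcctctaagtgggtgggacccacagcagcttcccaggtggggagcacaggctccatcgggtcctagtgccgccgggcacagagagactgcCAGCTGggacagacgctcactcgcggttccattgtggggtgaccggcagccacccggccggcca
The Chrna7 window held 70.0% G and C and 35 CpG pairs, the Chrna3 window 64.3% and 18, and the Chrnb4 window 63.0% and 14, against medians of 52.7% and 7 over 32851 windows of the table. The GC box was found once each in the windows of Chrna7 and Chrna3, as in 35.7% of all windows, and CAGCTG once in that of Chrnb4, as in 16.3%. Other forms of the E box were not searched. A search of both strands for CCAAT (37.4% of all windows), TATAAA (13.6%), TGANTCA (7.81%) and TGACGT (7.51%) found no match in these 3 windows. The search allowed no mismatch, and with 1 match in each window no motifs overlapped. A match describes these letters and is not evidence that a factor binds there.

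Chrna7, the gene of the alpha7 subunit, was lower after soman than in saline at day 3 and day 7, and at day 14 it was again close to its day 1 level. In bulk tissue, fewer cells that make a message and less message per cell cannot be told apart. Over the 36 soman libraries Chrna7 averaged 5.08 ± 0.82 FPKM (SD), against 6.36 ± 0.44 FPKM in saline (SD, n = 3). It was below every saline library in 31 of 36 soman libraries and above them in 0. How many of all tested genes reached such a count was not computed. In 8 of 12 groups all 3 libraries lay below all saline libraries. These were the 3 groups of day 3, where 15.8%, 14.9% and 14% of tested genes did so in order of rising dose, the 3 of day 7 (18.2%, 18.8% and 18.7%), and 2 of day 14. The log2 change over all soman groups was -0.29 ± 0.08 (SE, limma adjusted p = 0.0388), where 2.16% of tested genes were called lower. Leaving out saline replicate 1, 2 or 3 ended that call (adjusted p = 0.137, 0.24 and 0.167), as did leaving out the 7 midway libraries (0.324) and testing with no filter (0.0688).

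At day 3, Chrna7 had 4.34, 4.99 and 4.70 FPKM at 1/10 LD50, 4.28, 5.14 and 5.20 FPKM at 1/5 LD50, and 4.51, 5.18 and 4.82 FPKM at 1/2 LD50. Saline libraries had 6.15, 6.87 and 6.06 FPKM. All 9 soman libraries lay below all 3 saline libraries, and the 3 doses overlapped one another. The log2 changes, in order of rising dose, were -0.38 ± 0.10, -0.33 ± 0.10 and -0.33 ± 0.10 (SE, limma adjusted p = 0.0246, 0.0453 and 0.042). Of all tested genes, 5.36%, 6.12% and 4.65% were called lower in these 3 groups. The call at 1/10 LD50 was lost without any of the 6 libraries compared (adjusted p between 0.0519 and 0.105). At 1/2 LD50 it was lost without saline replicate 1, 2 or 3 or its own replicate 1 or 3 (0.081, 0.147, 0.079, 0.175 and 0.0866). At 1/5 LD50 it was lost without saline replicate 1, 2 or 3 or its own replicate 1 or 2 (0.0841, 0.153, 0.0816, 0.196 and 0.0881). It was also lost there without any of 11 libraries of other groups, which shared the estimate of spread (adjusted p between 0.05 and 0.0515). These 11 were, at day 1, replicates 1 and 3 of the lowest dose and 3 of the highest, then replicate 3 of 1/10 LD50 at day 3, the 3 replicates of 1/5 LD50 at day 7, and replicates 1 and 3 of 1/10 LD50, 1 of 1/5 LD50 and 3 of 1/2 LD50 at day 14.

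At day 7, Chrna7 had 3.76, 4.71 and 3.50 FPKM at 1/10 LD50, 3.96, 3.74 and 3.87 FPKM at 1/5 LD50, and 4.99, 5.37 and 4.47 FPKM at 1/2 LD50, against 6.15, 6.87 and 6.06 FPKM in saline. All 9 were again below all saline libraries, and those of 1/2 LD50 stood above those of 1/5 LD50. The log2 changes were -0.57 ± 0.10 at 1/10 LD50 and -0.60 ± 0.10 at 1/5 LD50 (SE, limma adjusted p = 0.000861 and 0.000222), where 15.3% and 8.87% of tested genes were called lower. At 1/2 LD50 the change was -0.31 ± 0.10 and was not called (adjusted p = 0.0589, with 6.68% of tested genes called lower). Both calls held without each library in turn (highest adjusted p 0.0149 and 0.00269). In the group of 1/10 LD50 the call was lost with the 2 libraries of high mitochondrial share left out (log2 change -0.63, adjusted p = 0.0923), which leaves that group with 1 library assumed to vary like the other groups, and with only the 2 groups in the model (adjusted p = 0.178). Meningeal fibroblast markers were also low at day 3 and day 7. The 7 markers summed to between 34.8 and 46.6 FPKM at day 1 and to between 26.3 and 35.9 FPKM at day 3. At day 7 the sums were between 25.6 and 33.1 FPKM at 1/10 LD50 and between 18.7 and 24.7 FPKM at 1/5 LD50. At 1/2 LD50 that day they were between 22.6 and 26.2 FPKM. At day 14 they were between 28.2 and 34.0 FPKM, against between 40.5 and 47.1 FPKM in saline. In no group was any of the 7 at 0 in all libraries, and their part in the Chrna7 and Chrnb2 results was not tested. The 7 interneuron markers, of a cell class that expresses alpha7, summed to between 364 and 465.5 FPKM at 1/10 LD50 at day 7. At 1/5 LD50 that day the sums were between 451 and 506 FPKM, and at 1/2 LD50 between 439 and 461 FPKM. In saline they were between 452 and 485 FPKM.

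At day 1, Chrna7 had 6.04, 5.77 and 6.26 FPKM at 1/10 LD50, 6.41, 4.09 and 5.73 FPKM at 1/5 LD50, and 5.13, 6.28 and 5.21 FPKM at 1/2 LD50. At day 14 it had 5.36, 5.04 and 5.60 FPKM, 6.13, 6.66 and 5.76 FPKM, and 5.90, 4.75 and 5.23 FPKM at the same doses. Against saline these 6 groups had log2 changes between -0.23 and -0.04 and none was called (limma adjusted p between 0.432 and 0.949). In order of rising dose, 0.347%, 0.0136% and 0.116% of tested genes were called in either direction at day 1, and 0.435%, 0.163% and 0.415% at day 14. All 3 libraries lay below all saline libraries at 1/10 and 1/2 LD50 at day 14, where 15.9% and 11.3% of tested genes did so. Replicate 2 of 1/5 LD50 at day 1 was the lowest of its group for 6 of the 7 genes.

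The course over days was also tested among soman groups alone, over the 3 doses. Chrna7 differed among days (limma F-test, adjusted p = 6.13e-05), in a series where 49.5% of tested genes did. It averaged 4.80 ± 0.36 FPKM at day 3 and 5.66 ± 0.74 FPKM at day 1 (SD, n = 9 each), and the log2 change was -0.19 ± 0.06 (SE, limma adjusted p = 0.0196, with 10.6% of tested genes called lower). That call was lost without replicate 1 of 1/5 LD50 at day 1 (adjusted p = 0.0542) or replicate 2 of 1/2 LD50 at day 1 (0.0509), and without the 7 midway libraries (log2 change -0.18, adjusted p = 0.0837). At day 7 it averaged 4.27 ± 0.65 FPKM, lower than at day 1 by a log2 change of -0.34 ± 0.06 (limma adjusted p = 0.00011, with 14.8% called lower). At day 14 it averaged 5.60 ± 0.59 FPKM and was higher than at day 7 by 0.33 ± 0.06 (limma adjusted p = 0.000129, with 17.1% called higher). Day 14 and day 1 differed by -0.01 on the log2 scale, with a 95% interval of -0.13 to 0.11 (limma adjusted p = 0.949, with 14.9% called in either direction). The differences of day 7 from day 1 and of day 14 from day 7 held without each library in turn (highest adjusted p 0.000412 and 0.000486).

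Dose made no called difference. Between 1/2 and 1/10 LD50, averaged over days, the log2 difference of Chrna7 was 0.04, with a 95% interval of -0.06 to 0.15 (limma adjusted p = 0.664). Of the 5 genes tested, 0 were called for this comparison, 0 for any difference among doses and 0 for a dose effect that changes with day. Of all tested genes, 0.0408%, 1.9% and 1.59% were called for these. Without adjustment the counts of the 5 past 0.05 in limma were 0, 0 and 1, the last being Chrna7 (adjusted p = 0.213 in limma).

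**Figure D2:**
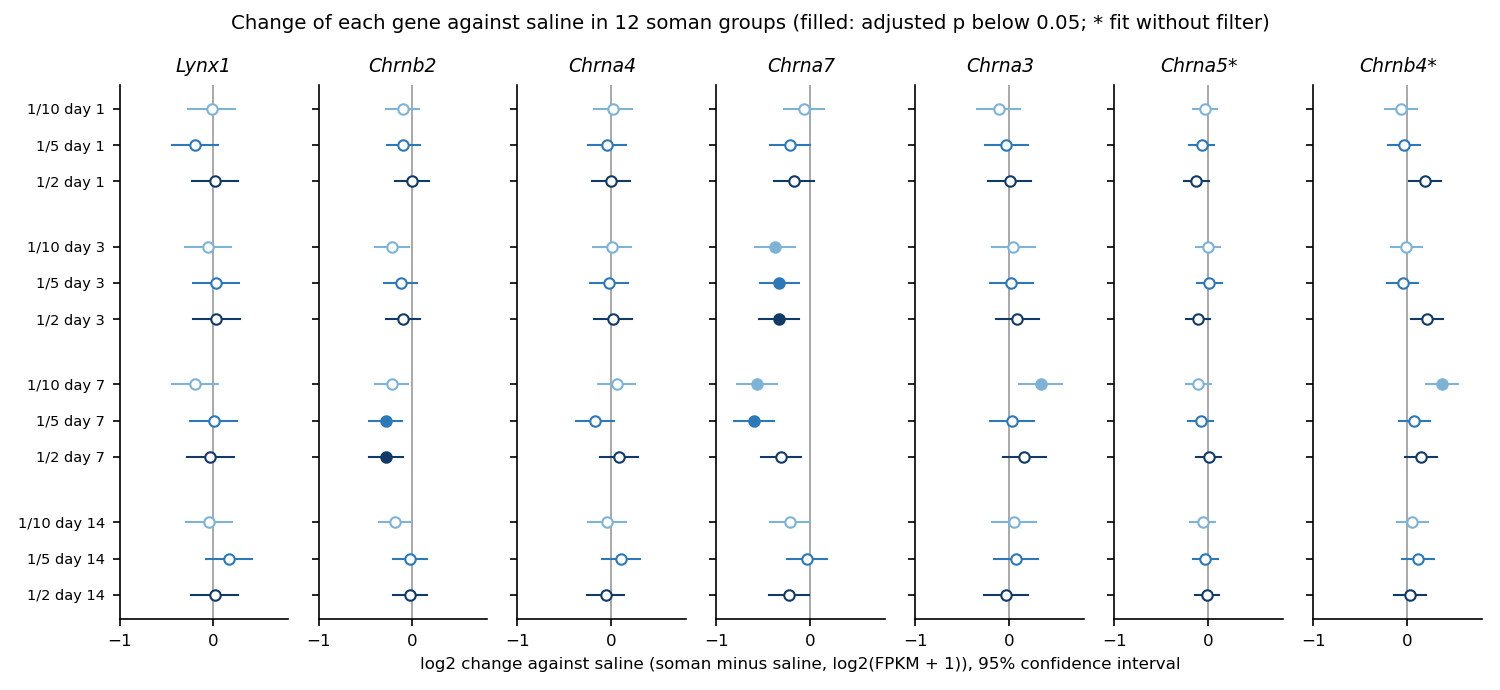
Log2 change of each gene against saline in each of 12 soman groups, with the 95% confidence interval; filled points passed an adjusted p of 0.05, and the 2 genes marked with an asterisk come from the fit without a filter. Chrna7 is filled in 5 groups, Chrnb2 in 2, Chrna3 and Chrnb4 in 1 each, and Chrna4, Chrna5 and Lynx1 in 0. Chrna3 passed the filter only through day 7 libraries, and without the filter its point at 1/10 LD50 at day 7 was not called (limma adjusted p = 0.0689).

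Chrnb2, the gene of the beta2 subunit, was lower at day 7. It had 9.78, 9.34 and 8.17 FPKM at 1/10 LD50, 8.86, 8.46 and 8.53 FPKM at 1/5 LD50, and 7.90, 8.79 and 9.32 FPKM at 1/2 LD50, against 10.8, 10.9 and 10.4 FPKM in saline. All 9 libraries were below all saline libraries, as were those of 18.2%, 18.8% and 18.7% of tested genes. The log2 changes were -0.22 ± 0.09, -0.29 ± 0.09 and -0.28 ± 0.09 (SE, limma adjusted p = 0.0746, 0.0248 and 0.0421), where 15.3%, 8.87% and 6.68% of tested genes were called lower. The calls at 1/5 and 1/2 LD50 were lost without any of the 3 saline libraries (adjusted p between 0.0537 and 0.104). That at 1/5 LD50 was also lost without its replicate 2 (0.0687) or 3 (0.0809), and that at 1/2 LD50 without its replicate 1 (0.281) or 2 (0.0754). Over all soman libraries Chrnb2 averaged 9.69 ± 0.96 FPKM, against 10.7 ± 0.24 FPKM in saline, and was below every saline library in 27 of 36. The share of tested genes with such a count was not computed. The change over all groups was -0.14 ± 0.06 and was not called (adjusted p = 0.267).

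Among soman groups, Chrnb2 differed among days (limma F-test, adjusted p = 0.00697), as did 49.5% of tested genes. That call was lost without the 2 libraries of high mitochondrial share (0.0578) and without the 7 midway libraries (0.0564). It averaged 8.79 ± 0.60 FPKM at day 7 and 10.2 ± 0.55 FPKM at day 1 (SD, n = 9 each), lower by a log2 change of -0.19 ± 0.05 (SE, limma adjusted p = 0.00496, with 14.8% of tested genes called lower). At day 14 it averaged 10.1 ± 0.87 FPKM, higher than at day 7 by 0.18 ± 0.05 (limma adjusted p = 0.0064, with 17.1% called higher). Both held without each library in turn (highest adjusted p 0.016 and 0.0194), but the difference of day 14 from day 7 was lost without the 7 midway libraries (log2 change 0.17, adjusted p = 0.0623). Chrnb2 has the longest transcript of the 7 genes, 6399 bases, against 2814 for Chrna7 and a median of 3281 over tested genes. With the dependence on transcript length taken out of every library, the Chrnb2 calls were lost (day 7 against day 1, log2 change -0.08, adjusted p = 0.185; among days, adjusted p = 0.203). At 1/5 and 1/2 LD50 at day 7 the adjusted p against saline was then 0.273 and 0.25. The 5 Chrna7 calls of day 3 and day 7 kept theirs, at adjusted p = 0.0298, 0.0399 and 0.0247 at day 3, in order of rising dose, and 0.00321 and 0.00026 at 1/10 and 1/5 LD50 at day 7. The Chrna7 change over all soman groups was then -0.295, against -0.2875 as deposited, at an adjusted p of 0.0697.

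**Figure D3:**
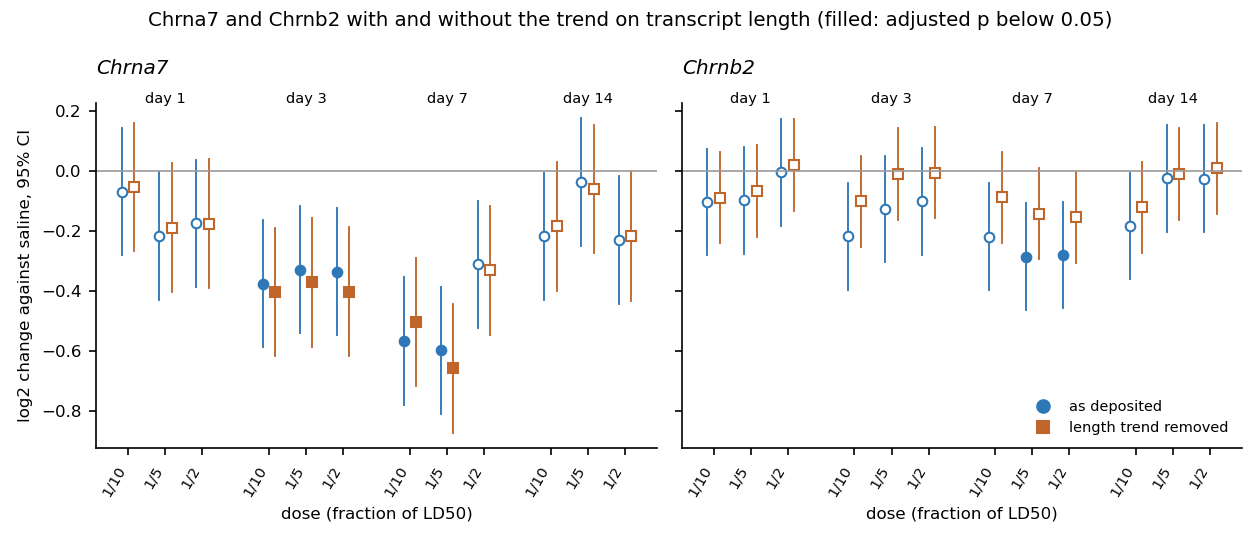
Log2 change against saline with its 95% interval for Chrna7 and Chrnb2, as deposited (circles) and with the length dependence taken out (squares), by dose within day; filled points passed an adjusted p of 0.05. The 5 filled Chrna7 points stay filled, and the 2 filled Chrnb2 points, both at day 7, become open.

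Chrna4, the gene of the alpha4 partner of beta2, was called in 0 of 12 groups. It averaged 7.02 ± 0.70 FPKM over the 36 soman libraries and 7.03 ± 0.27 FPKM in saline, a log2 change of -0.01 with a 95% interval of -0.16 to 0.14 (limma adjusted p = 0.973). The sign of that value changed with median-ratio scaling, with the length dependence taken out and without any of 4 libraries, namely saline replicate 1, replicate 2 of 1/10 or 1/5 LD50 at day 1 and replicate 1 of 1/5 LD50 at day 3. Its 4 day means lay between 6.99 and 7.04 FPKM (SD between 0.53 and 0.85, n = 9 each). The lowest group was 1/5 LD50 at day 7, with 5.81, 6.46 and 6.05 FPKM, all below the saline values of 7.29, 7.04 and 6.76 FPKM (log2 change -0.18 ± 0.10, adjusted p = 0.229, where 18.8% of tested genes had all 3 libraries below saline). The ratio of Chrna4 to Chrnb2 in the same library, on log2(FPKM + 1), averaged -0.30 ± 0.17 at day 7, -0.49 ± 0.17 at day 1 (SD, n = 9 each) and -0.55 ± 0.03 in saline (SD, n = 3).

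Ratios within a library set Chrna7 against the other genes on the same RNA, and 6 such differences were tested by two-sided exact permutation tests over samples. The log2 ratio of Chrna7 to Chrna4 averaged -0.60 ± 0.17 at day 7 and -0.27 ± 0.11 at day 1 (SD, n = 9 each), a difference of -0.34. It was -0.28 ± 0.10 at day 14, and the difference of day 14 from day 7 was 0.32 (exact permutation p = 8.23e-05 for each, adjusted over the 6 tests 0.000247). The ratio of Chrna7 to Lynx1 differed by -0.33 between day 7 and day 1 (exact p = 0.00276, adjusted 0.00551) and by 0.21 between day 14 and day 7 (exact p = 0.0329, adjusted 0.0494). The ratio of Chrna7 to Chrnb2 differed by -0.15 and 0.15, and these 2 did not pass (exact p = 0.149 and 0.101, adjusted 0.149 and 0.121). Saline ratios of Chrna7 to Chrna4 lay between -0.21 and -0.03, above all 9 values of day 3 and all 9 of day 7.

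**Figure D4:**
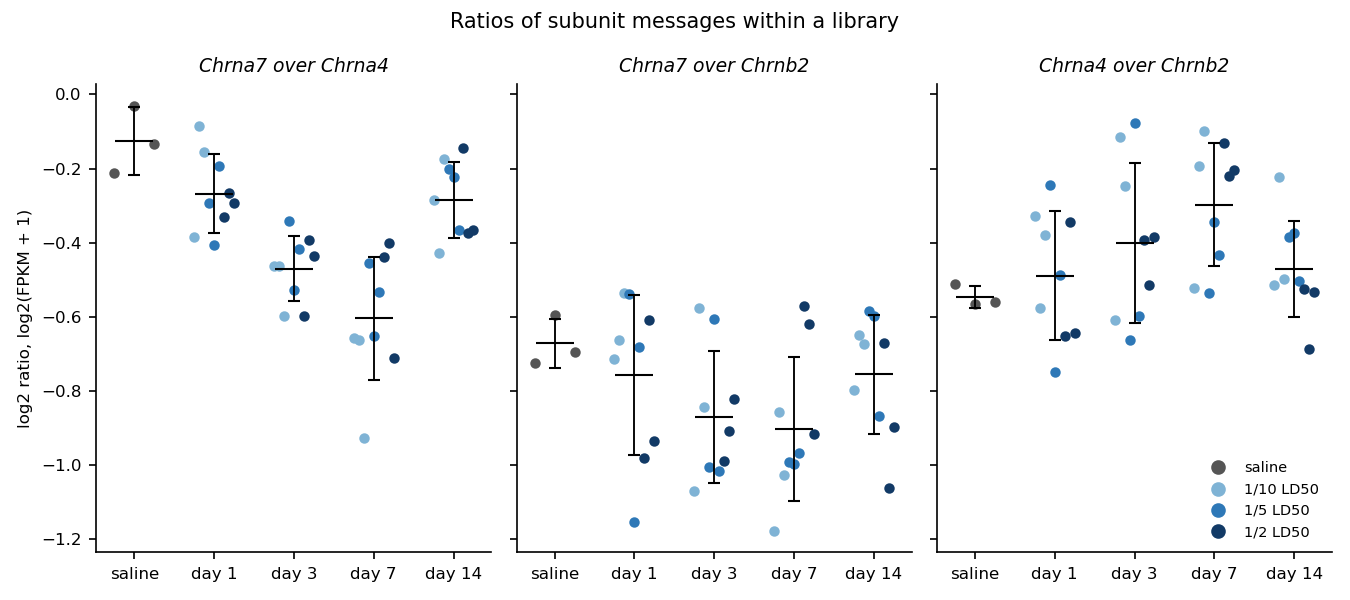
Log2 ratio of one message to another in the same library, for saline and for the 9 soman libraries of each day, coloured by dose, with the mean and SD (black bars). The ratio of Chrna7 to Chrna4 averages -0.60 at day 7, -0.27 at day 1 and -0.28 at day 14.

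Chrna3 and Chrnb4, neighbours on chromosome 9 whose products form the habenular and ganglionic receptor, were both high at 1/10 LD50 at day 7. Chrna3 had 1.01, 1.16 and 0.899 FPKM there, against 0.572, 0.606 and 0.622 FPKM in saline, with no overlap between the groups, as for 7.71% of tested genes in that direction. Its log2 change was 0.34 ± 0.11 (SE, limma adjusted p = 0.0354, with 4.23% of tested genes called higher). Because 2 of the 3 libraries that brought Chrna3 past the filter were in this group, that p is a description. In the fit without a filter the same change had an adjusted p of 0.0689 and was not called. The filtered call was lost without saline replicate 1, 2 or 3 (adjusted p = 0.0875, 0.0736 and 0.0786), without replicate 2 or 3 of the group (0.126 and 0.0788) and with a pseudocount of 0.1 (0.0555). Without the 2 libraries of high mitochondrial share, both in that group, the change was 0.33 with 1 library left (adjusted p = 0.457). Chrna3 lay wholly above saline in 2 more groups, 1/2 LD50 at day 3 and at day 7, as did 20.3% and 13.5% of tested genes, with no call. At 1/5 LD50 at day 7 it had 0.652, 0.719 and 0.539 FPKM, and at 1/2 LD50 0.682, 0.697 and 1.01 FPKM (adjusted p = 0.88 and 0.395).

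Chrnb4 had 0.730, 0.582 and 0.429 FPKM at 1/10 LD50 at day 7, against 0.182, 0.248 and 0.215 FPKM in saline. The groups did not overlap, as for 7.71% of tested genes in that direction, a set without Chrnb4. The log2 change in the fit without a filter was 0.38 ± 0.08 (SE, limma adjusted p = 0.00745, where 1.39% of 37782 genes were called higher). The depth behind values this low is unknown. That call held without each library in turn (highest adjusted p 0.0326) and was lost without the 7 midway libraries (0.139) or with only the 2 groups in the model (0.314). Chrnb4 was also above all saline libraries at 1/2 LD50 at day 1 (0.353, 0.363 and 0.456 FPKM) and at day 3 (0.433, 0.369 and 0.415 FPKM), without a call (adjusted p = 0.57 and 0.196). Of tested genes, 7.93% and 20.3% lay above saline in these 2 groups.

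Among soman groups, Chrnb4 differed among days in the fit without a filter (limma F-test, adjusted p = 0.035, where 18.4% of all genes did), and Chrna3 did not pass there (0.0706). The Chrnb4 call was lost without the 7 midway libraries (0.131). With the filter, which Chrna3 passed only through day 7 libraries, it had an adjusted p of 0.0381, where 49.5% of tested genes were called. Chrna3 averaged 0.819 ± 0.21 FPKM at day 7 and 0.561 ± 0.17 FPKM at day 1 (SD, n = 9 each), higher by a log2 change of 0.22 ± 0.07 (SE, limma adjusted p = 0.0126 with the filter, with 10.2% of tested genes called higher, and 0.0254 without it). Chrnb4 averaged 0.405 ± 0.17 and 0.247 ± 0.12 FPKM at day 7 and day 1, a change of 0.17 ± 0.05 (adjusted p = 0.0219, no filter, with 3.37% of all genes called higher). With the filter, the Chrna3 change held without each library in turn (highest adjusted p 0.0338), with the tested genes fixed on all 39 libraries. Filtered afresh without any of its 3 libraries at 1 FPKM, Chrna3 would not have been tested, so that this is a description. The Chrnb4 change was lost without replicate 2 of 1/10 LD50 at day 1, replicate 3 of 1/5 LD50 at day 7 or replicate 3 of 1/2 LD50 at day 7 (adjusted p = 0.055, 0.0512 and 0.0578). Both were lost without the 7 midway libraries (0.239 for Chrna3 and 0.105 for Chrnb4). Chrna5, on the same stretch of chromosome 9, was not called in any comparison. It averaged 0.375 ± 0.08 FPKM over soman libraries and 0.423 ± 0.06 FPKM in saline, a log2 change of -0.05 with a 95% interval of -0.15 to 0.05 (adjusted p = 0.894, no filter).

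Markers of medial habenula neurons, the brain cells best known for alpha3 and beta4, were examined beside these values. The sum of these markers weighs Tac2 most. Its mean was 8.2 FPKM over the 39 libraries, against 3.62 FPKM for Nwd2 and 1.255 FPKM for Gng8. The 5 markers summed to between 14.2 and 17.2 FPKM at 1/10 LD50 at day 7, against between 11.7 and 13.9 FPKM in saline, and in no group was any of them at 0 in all libraries. Tac2, a tachykinin of the habenula, had a mean of 9.77 ± 1.90 FPKM there, against 6.89 ± 0.90 FPKM in saline (log2 change 0.44 ± 0.13, limma adjusted p = 0.0224), and it was also called higher at 1/5 LD50 at day 7 and 1/2 LD50 at day 3 (adjusted p = 0.029 and 0.025, with 6.49% and 3.79% of tested genes called higher). Each of the 3 calls was lost without saline replicate 1 or 3. They were also lost without replicate 3 at 1/10 LD50, 1 or 3 at 1/5 LD50, and 1 or 2 at 1/2 LD50 (highest adjusted p 0.217, 0.126 and 0.115). All 3 were lost with no filter (adjusted p between 0.0551 and 0.0736) and without the 7 midway libraries (between 0.122 and 0.165). That at 1/10 LD50 at day 7 was lost with only the 2 groups in the model (0.237). With the length dependence taken out, the Tac2 changes at 1/5 LD50 at day 7 and 1/2 LD50 at day 3 were 0.20 and 0.30 (adjusted p = 0.462 and 0.255). Without the 2 libraries of high mitochondrial share, that at 1/10 LD50 at day 7 was 0.38 (0.453). At the 2 other doses of day 7 the 5 markers summed to between 13.5 and 18.4 FPKM. Between day 7 and day 1, Tac2 rose by 0.46 ± 0.08 (adjusted p = 6.36e-05) and Gng8, a G protein subunit enriched in the habenula, by 0.30 ± 0.09 (0.018). The Gng8 call was lost without replicate 3 of 1/2 LD50 at day 1 (0.0531), without the 7 midway libraries (0.163) and with the length dependence taken out (0.20, adjusted p = 0.12). Nwd2 was lower by a log2 change of -0.20 ± 0.07 (0.0464), a call lost without any of 24 of the 39 libraries (highest adjusted p 0.123) and close to 0 with the length dependence taken out (-0.03, adjusted p = 0.79). Gpr151 and Pou4f1, which did not reach the filter, had log2 changes of 0.15 ± 0.08 and 0.18 ± 0.10 (adjusted p = 0.325 and 0.294, no filter). The part of habenular tissue in the Chrna3 and Chrnb4 values was not tested.

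**Figure D5:**
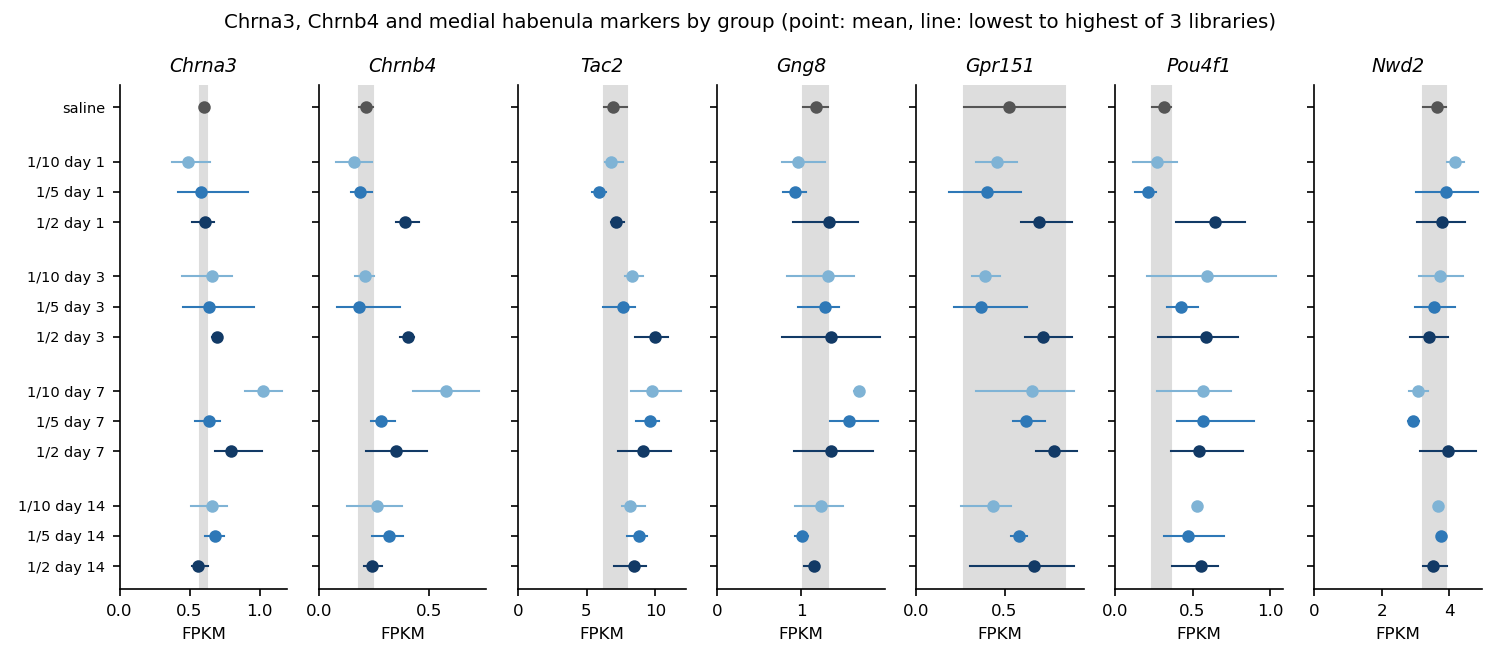
Mean FPKM (points) and lowest to highest of 3 libraries (lines) of Chrna3, Chrnb4 and 5 medial habenula markers in saline and in each soman group; the grey band is the saline range. At 1/10 LD50 at day 7 Chrna3, Chrnb4, Tac2 and Gng8 lie wholly to the right of the band, and Gpr151, Pou4f1 and Nwd2 overlap it.

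Lynx1, the modulator, was called in 0 of 12 groups and did not differ among days past the threshold (limma F-test, adjusted p = 0.358). It averaged 80.8 ± 8.75 FPKM over the 36 soman libraries and 81.8 ± 5.71 FPKM in saline, a log2 change of -0.02 with a 95% interval of -0.21 to 0.16 (limma adjusted p = 0.928). Its sign changed without saline replicate 2. Of the soman libraries, 9 were below and 9 above all saline libraries. At 1/10 LD50 at day 7 it had 78.2, 69.3 and 66.6 FPKM, and at 1/5 LD50 at day 14 87.7, 96.0 and 91.9 FPKM, against 75.8, 87.1 and 82.4 FPKM in saline. The second of these groups was the only 1 of the 12 with all 3 Lynx1 values above saline (log2 change 0.17 ± 0.12, adjusted p = 0.693, where 14.2% of tested genes lay wholly above saline). The log2 ratio of Lynx1 to Chrna4 averaged 3.30 ± 0.24 at day 7, 3.31 ± 0.17 at day 1 and 3.36 ± 0.13 in saline.

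In all, 7 of the 60 pairs of a tested gene and a soman group were called lower, 5 for Chrna7 and 2 for Chrnb2, and 1 was called higher, for Chrna3, which passed the filter only through day 7 libraries. Over all tested genes 4.01% of such pairs were called lower and 1.72% higher. A lower call in at least 5 of the 12 groups, as for Chrna7, was found for 3.19% of tested genes, and in at least 2, as for Chrnb2, for 9.24%. The 12 comparisons share the saline libraries and are not independent.

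Other genes of the pathway showed few calls against saline. Of 10 further nicotinic subunits only Chrnb1, a muscle subunit, was tested, at 0.769 ± 0.18 FPKM over soman libraries and 0.794 ± 0.17 FPKM in saline, and it was not called (adjusted p = 0.923 over all soman groups). Of the 9 relatives of Lynx1 with the same protein fold, 6 were tested and 2 were called higher, both at 1/2 LD50 at day 3, where 3.79% of all tested genes were. Ly6h averaged 95.1 ± 7.20 FPKM there, against 70.5 ± 6.97 FPKM in saline (SD, n = 3 each), with a log2 change of 0.43 ± 0.13 (SE, limma adjusted p = 0.0414, and 0.36 with adjusted p = 0.103 with the length dependence taken out). Lypd1 averaged 12.2 ± 0.78 FPKM, against 8.03 ± 1.47 FPKM in saline, with a log2 change of 0.55 ± 0.17 (adjusted p = 0.0422). Each of these 2 calls was lost without any of 5 of its 6 libraries (adjusted p up to 0.188 and 0.184), all but replicate 2 of the dose for Ly6h and all but saline replicate 2 for Lypd1. Ly6e, a relative also known from viral entry, was not called against saline. It was higher at day 7 than at day 1 by 0.33 ± 0.07 (adjusted p = 0.00128, with 10.2% of tested genes called higher). Lypd6, another relative, was lower in that comparison, with a log2 change of -0.12 ± 0.04 (limma adjusted p = 0.0342, with 14.8% called lower). That call was lost with no filter (0.0595), without the 7 midway libraries (0.134) and with the length dependence taken out (0.089). It was also lost without any of 8 libraries (highest adjusted p 0.082).

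Among 7 genes for assembly and transport of these receptors, 6 were tested. In this list Vsnl1, a calcium sensor known to raise alpha4 beta2 at the surface, rose at 1/10 LD50 at day 7, with 229 ± 34.2 FPKM against 175 ± 16.6 FPKM in saline (log2 change 0.38 ± 0.09, limma adjusted p = 0.00593). That call was lost without replicate 3 of the group (0.0901). Rer1, a retention receptor of the Golgi, rose by 0.23 ± 0.08 at 1/5 LD50 at day 7 (adjusted p = 0.0379), a call lost without saline replicate 1 or 3 or any library of the group (highest adjusted p 0.119) and with the length dependence taken out (0.439). Tmem35a, the chaperone of alpha7, averaged 19.0 ± 1.63 FPKM over soman libraries and 19.4 ± 0.22 FPKM in saline and was called in 0 groups (adjusted p = 0.816 over all of them). It did differ among the 13 groups (limma F-test, adjusted p = 0.00483), as did 44.9% of tested genes. Ric3, a chaperone that folds alpha7, was lower at day 7 than at day 1 by a log2 change of -0.21 ± 0.07 (adjusted p = 0.0425). That call was lost with no filter (0.0978), with the length dependence taken out (0.189) and without any of 12 of the 18 libraries compared (between 0.0635 and 0.109). The 6 others were replicate 2 of each dose at day 1 and replicates 1 of 1/10 LD50, 3 of 1/5 LD50 and 2 of 1/2 LD50 at day 7. The 4 muscarinic receptors tested gave 0 calls in 48 pairs in limma, with 8 below an unadjusted p of 0.05. Over all tested genes, 5.73% of such pairs were called in either direction. Among 6 genes of the cholinergic terminal, Prima1, the membrane anchor of acetylcholinesterase, was called higher at 1/10 LD50 at day 7 (4.64 ± 0.51 FPKM against 3.44 ± 0.33 FPKM in saline, adjusted p = 0.0199). That call needed saline replicates 2 and 3 and replicates 2 and 3 of the group (highest adjusted p 0.0966 without 1 of them). Ache, the enzyme that soman blocks, averaged 31.9 ± 4.55 FPKM over soman libraries and 32.2 ± 2.41 FPKM in saline (log2 change -0.02, adjusted p = 0.939). Without the 2 libraries of high mitochondrial share, both in that group, Vsnl1 and Prima1 had log2 changes of 0.18 and 0.21 (adjusted p = 0.577 and 0.63).

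Markers of other cell classes were counted over the 12 groups in the same way. Dopamine neurons (5 tested) and excitatory neurons (6) gave 0 calls in limma, with 5 and 1 pairs below an unadjusted p of 0.05. Interneurons (7 tested) and neurons of any kind (6) gave 1 higher and 1 lower pair each, of 84 and 72 pairs. Of 72 pairs each, astrocytes gave 2 lower, oligodendrocytes 1 lower, microglia 2 higher and endothelium 5 higher. Choroid plexus markers were lower in 8 of 72 pairs and those of red blood cells in 6 of 60. Meningeal fibroblast markers were lower in 41 of 84 pairs. Over all tested genes, 4.01% of such pairs were called lower and 1.72% higher.

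The tested genes of mean FPKM 2 or more whose values followed each gene most closely over the 39 libraries were listed as a description, from 11080 genes left once symbols of predicted loci were set aside. For Chrna7 these were Hspa12a, of the heat shock protein family (Pearson r = 0.89), Wdr7, a WD repeat protein (0.874), and Slc4a10, a bicarbonate transporter (0.863). For Chrnb2 they were Itga3, an integrin (0.862), Abca2, a lipid transporter (0.858), and Kcnc1, a potassium channel (0.857). Chrna4 was followed less closely, by App (0.726), Zmat4 (0.711) and Cmip (0.689). The nearest to Lynx1 were Hhatl (0.766), Fto (0.745) and Vps18 (0.729), and those to Chrna3 were Capns1 (0.664), Cntfr (0.662) and Cygb (0.651). The libraries share groups and handling. Within groups, with group means removed, the correlation was 0.746 for Hspa12a with Chrna7 and 0.861 for Kcnc1 with Chrnb2.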

How the data were processed

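RNA of mouse brain was selected on poly(dT) beads and turned into cDNA libraries, per the labels' protocols. The submitters' processing notes list HISAT2, with no version, and GRCh38. That is a human build, named for mouse samples, so no coordinates of the table were used. The authors deposited FPKM, in 1 table of 47561 genes by 39 libraries. The program that computed them, its annotation and its use of strand are not given in the sources used here. Read counts were not analysed here, so the depth of each library is unknown, and with it the counting precision.

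Groups came from the labels, which number the 3 libraries of a group as replicates and do not say whether they came from separate animals, so p-values measure the spread between these libraries, which may be technical. From the authors' FPKM, log2(FPKM + 1) was fitted with limma 3.58.1 in R 4.3.3 as 13 group means (lmFit, eBayes with trend). P values received a Benjamini-Hochberg adjustment over the 14701 genes at 1 FPKM or more in at least 3 libraries, or over 37782 genes above 0 in any library for Chrna5 and Chrnb4. On this scale the changes of genes below or near 1 FPKM are understated. The 7 genes, the 17 other gene lists and the tests were chosen with earlier results of these data known. Comparisons of day 3 and day 7 with day 1 and of day 14 with day 7, the ratio tests and the alternatives for Chrnb4 were added after values were seen. Named genes are the 7, the 3 closest by Pearson r to each tested one, and for each list up to 3 of smallest p over 13 groups and any called in 6 or more groups. Rer1, Ric3, Lypd6, Gpr151 and Pou4f1 fall outside that rule and were chosen after their values were seen. Meningeal and other marker lists are reported as sums or counts.

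Other settings were tried: no filter, a pseudocount of 0.1, scaling by median ratios, a model of the compared groups alone, a replicate block, each library left out in turn, and 2 sets of libraries left out. In a last setting the lowess curve (span 0.5) of values on longest transcript length was subtracted within every library (GENCODE vM21 lengths for 14104 tested genes, 95.9%). Midway libraries were found from genes of mean FPKM 5 or more that were over 2-fold apart in the other 2 of the group. A library counted as midway when more of these genes took positions from 0.3 to 0.7 than in any library of another group. Replicate numbers did not pair libraries: 39 of 234 pairs of the same number in different groups had deviations correlated above 0.1 (median r = 0.00535). Promoter windows came from RefSeq GRCm38.p6; 6 of the 7 genes had an entry. The code was tested on simulated data. Summaries and figures used Python 3.11.15, numpy 2.4.6, pandas 2.3.3 and matplotlib 3.10.9.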

Additional observations from a re-analysis of the deposited data

Results flagged for a closer look

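Differences among the 4 collection days within the soman groups, averaged over doses, were called for 3 of the 5 tested genes, where 49.5% of all tested genes were called, and for Chrnb4 in the fit without a filter. Chrna7 did so at a limma F-test adjusted p of 6.13e-05 and Chrnb2 at 0.00697, both with their lowest mean at day 7. Chrnb2 was not called without the 2 libraries of high mitochondrial share (0.0578) or without the 7 midway libraries (0.0564). Chrna3 did so at 0.0381, with its highest mean at day 7, but it had passed the filter only through day 7 libraries. It was not called with no filter (0.0706) or without the 7 midway libraries (0.35). Nor was it called without the 2 libraries of high mitochondrial share, which leaves their group with 1 library. The filtered call was also lost without any of 9 libraries, namely replicates 2 and 3 of 1/10 LD50, 2 and 3 of 1/5 LD50 and 3 of 1/2 LD50 at day 1, and replicates 2 of 1/10 LD50, 1 and 2 of 1/5 LD50 and 3 of 1/2 LD50 at day 7 (adjusted p between 0.0597 and 0.0966). Chrnb4, in the fit without a filter, did so at 0.035, also highest at day 7, where 18.4% of all genes were called. That call was lost without the 7 midway libraries (0.131) and with a pseudocount of 0.1 (0.0747). It was lost without any of 9 libraries, namely replicates 2 of 1/10 LD50, 2 of 1/5 LD50 and 1 of 1/2 LD50 at day 1, and replicates 1 and 2 of 1/10 LD50, 1 and 3 of 1/5 LD50 and 2 and 3 of 1/2 LD50 at day 7 (adjusted p between 0.0506 and 0.109). Whether these differences came with time or with the handling of each collection cannot be told apart.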

How the results depend on the processing

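Calls against saline were the most dependent on processing. The 8 calls over 12 groups became 3 with no filter (Chrna7 at 1/10 and 1/5 LD50 at day 7 and Chrnb4), 3 with only the groups compared and 2 without the 7 midway libraries, and ranged from 2 to 9 with a library left out, being 2 whichever saline library was left out. The 1 call over all soman groups became 0 with no filter, without the 7 libraries and with the length dependence taken out, and ranged from 0 to 1 with a library left out. The 3 calls among days became 1 without the 2 libraries of high mitochondrial share and 1 without the 7. For Chrna4 over all soman groups the log2 change turned to 0.001616 with median-ratio scaling and 0.0303 with the length dependence taken out, and ranged from -0.03171 to 0.01611 with a library left out. That of Lynx1 ranged from -0.07661 to 0.0231. The replicate numbers did not pair the libraries; with the replicate number as a block, Chrna7 at 1/2 and 1/5 LD50 at day 3 missed the threshold (log2 changes -0.33 and -0.33, adjusted p = 0.0502 and 0.0538), and no other call of the 7 genes changed. The differences of Chrna7 between day 7 and day 1 and between day 14 and day 7 passed under each alternative tried. The 4 ratio differences that passed were tried under 3 alternatives, without adjustment over the 6 tests. Each kept an exact permutation p below 0.05 under all 3. No scaling moved the median of all genes by over 0.1 on the log2 scale. With no depth known, no limit from counting can be given for Chrna3, Chrna5 or Chrnb4.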
